A study of Mus musculus with 6 samples.

Results

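Transcripts of 10 genes of the corticotropin-releasing hormone (CRH), PACAP and vasopressin systems were measured by RNA-seq in whole brains of mice fed PLDP, a product made by digesting porcine liver protein with protease. The genes were Crh, Ucn, Ucn3, Crhr1, Crhr2, Crhbp, Adcyap1, Adcyap1r1, Avp and Avpr1a, chosen by symbol through the Ensembl identifiers of the deposited tables. All 10 were found among the 60354 features listed for each mouse, and all 10 were among the 18580 features that passed the filter on low counts. Male C57BL/6NCrSlc mice were fed modified AIN-93M chow, either holding 20% PLDP (PLDP mice, n = 3, mice 17, 22 and 26) or free of PLDP with its calories matched (control mice, n = 3, mice 2, 5 and 10). Feeding began at 16 weeks of age and lasted 16 weeks. All mice then went through the same behavioral tests, including a forced swim, before the brain was taken, and the PLDP diet was not given during that testing period. Both the diet and the tests thus preceded the RNA in either group.

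CRH is a peptide made in hypothalamic neurons that drive the pituitary to release adrenocorticotropic hormone, and it is also made by neurons of the cortex, amygdala and brainstem. Its relatives the urocortins share its receptors, and a secreted binding protein holds the free peptide. PACAP, encoded by Adcyap1, acts on CRH neurons among many others and raises cyclic AMP through its receptor. Vasopressin, from the hypothalamus, acts with CRH on the pituitary and is itself released within the brain, where it is known for effects on social behavior and anxiety.

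The totals ranged from 18797061 to 23938729 counts per mouse, with both the lowest and the highest among the PLDP mice. Markers of neurons, astrocytes, oligodendrocytes and microglia were present in every brain. Pituitary markers other than Pomc were at or near 0 (Lhb and Pou1f1 had 0 counts in all mice, Gh at most 2 and Prl at most 1 in any brain). Summed markers of the hindbrain and spinal cord, the hypothalamus, the choroid plexus and the cortical and hippocampal projection neurons did not overlap between the diets.

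CPM, the unit used throughout, are counts per 1000000 counts of the scaled library. Of the 10 genes, 1 was higher in the PLDP mice (Crhr1) and 2 were lower (Adcyap1 and Avpr1a) at an unadjusted p under 0.05 in edgeR's quasi-likelihood test. The other 7 were not called. Avpr1a passed the filter on low counts through the control mice alone, so the count of 2 lower genes is given as a description. Among all 18580 features tested, 8.6% were called in either direction, 4.91% higher and 3.69% lower. After Benjamini-Hochberg adjustment over all features tested, 0 of the 10 genes passed 0.05 against 0.0323% of all features, and the smallest adjusted p among the 10 was 0.420. The diets did not overlap for these same 3 genes, 1 higher and 2 lower in PLDP mice, and groups without overlap made up 14.2% of all features, 7.29% higher and 6.9% lower. The median log2 fold change of the 10 genes was 0.01, beside -0.00062 over all features. With 3 called genes in a set of 10 picked by function and with earlier results known, the count is a description.

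**Figure D1:**
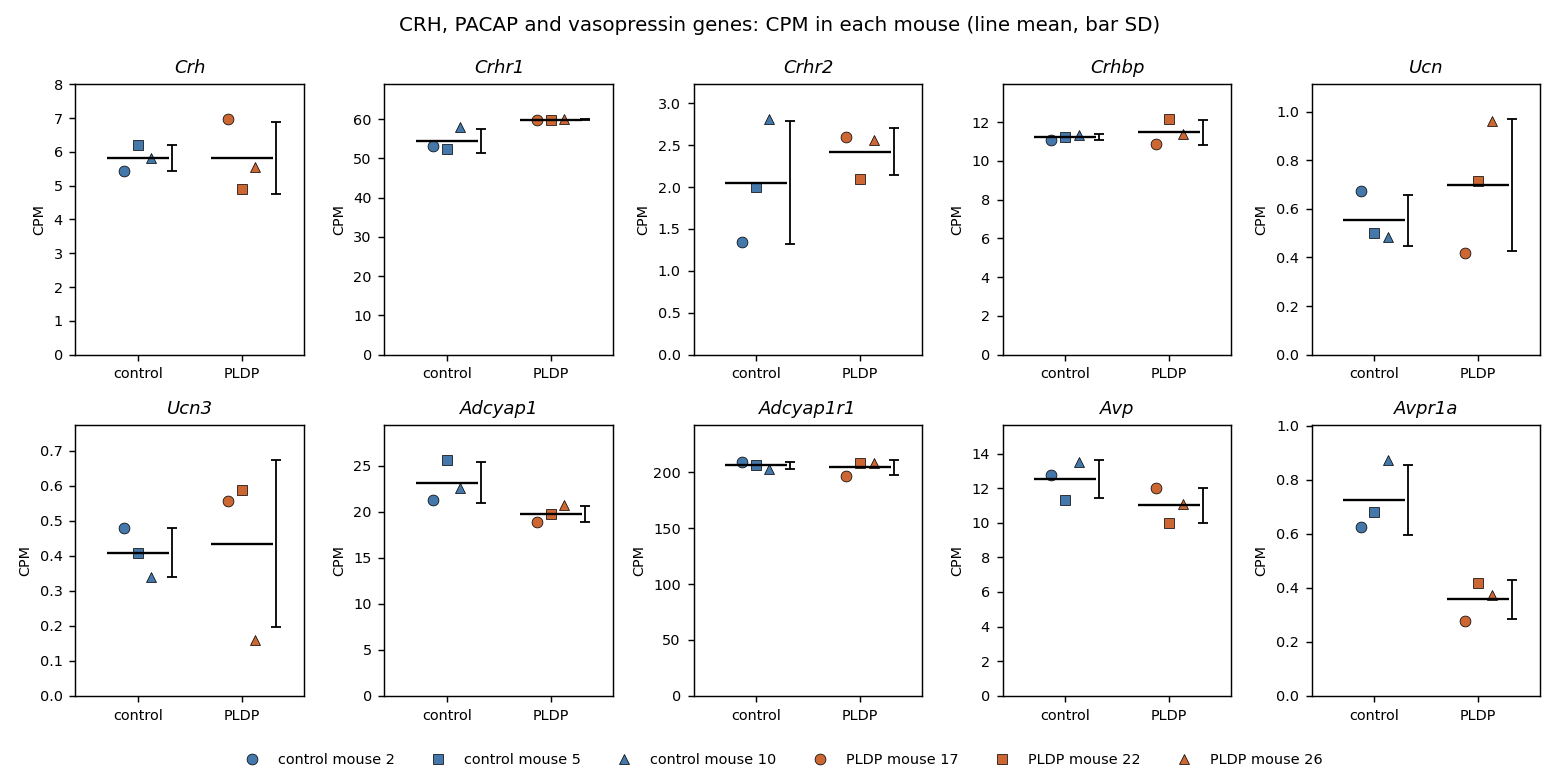
CPM (counts per 1000000 counts of the TMM-scaled library, y axis from 0) of each of the 10 genes in each mouse by diet, with 1 point per mouse, a line at the mean and a bar of 1 SD. The 3 PLDP mice lie above all 3 control mice for Crhr1 (59.7 to 60.0 against 52.3 to 57.9) and below them for Adcyap1 and Avpr1a, and the diets overlap for the other 7 genes.

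The peptides of the CRH family were examined first. Crh (ENSMUSG00000049796, chromosome 3 of GRCm38, 19693401 to 19695396, minus strand) had 5.44, 6.22 and 5.82 CPM in control mice 2, 5 and 10. In PLDP mice 17, 22 and 26 it had 6.97, 4.91 and 5.56 CPM. The highest and the lowest brain were both PLDP brains, and the means of the diets were nearly equal. They were 5.82 ± 0.39 CPM for control and 5.81 ± 1.06 CPM for PLDP (n = 3 each, SD). The log2 fold change of Crh was -0.01 with a 95% interval from -0.30 to 0.29, so a rise or fall of up to about that size is not resolved by these brains.

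Ucn encodes urocortin, which binds both CRH receptors, and Ucn3 encodes the urocortin that prefers the receptor encoded by Crhr2. Ucn (ENSMUSG00000038676, chromosome 5, 31138063 to 31138829, minus strand) had between 10 and 14 counts in the control mice and between 9 and 18 in the PLDP mice. This was 0.67, 0.50 and 0.48 CPM in control mice 2, 5 and 10, and 0.42, 0.71 and 0.96 CPM in PLDP mice 17, 22 and 26. Both diets thus lay in one broad band. Ucn3 (ENSMUSG00000044988, chromosome 13, 3940688 to 3945349, minus strand) had 10, 9 and 7 counts in the control mice and 12, 14 and 3 in the PLDP mice, with PLDP mouse 26 the lowest. The log2 fold changes were 0.32 for Ucn (95% interval -0.46 to 1.10) and 0.13 for Ucn3 (-0.82 to 1.08). Ucn was at 0.05 without PLDP mouse 26 and at 0.58 without PLDP mouse 17. The direction of Ucn3 turned with limma voom (-0.038) and without PLDP mouse 17 (-0.05) or 22 (-0.14), and its value was 0.48 without PLDP mouse 26. At these counts a doubling of either transcript lies within the interval. Ucn2, the remaining urocortin gene, had at most 5 counts in any brain and was not tested.

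Among the receptors, Crhr1 was higher in the PLDP mice. This gene (ENSMUSG00000018634, chromosome 11, 104132855 to 104175523, plus strand) encodes the main CRH receptor of cortex, cerebellum and pituitary. It had 53.1, 52.3 and 57.9 CPM in control mice 2, 5 and 10 and 59.7, 59.7 and 60.0 CPM in PLDP mice 17, 22 and 26. The PLDP brains were almost identical to each other and all lay above the control brains, of which mouse 10 came closest. Mean levels were 54.4 ± 3.001 and 59.8 ± 0.175 CPM (n = 3 each, SD). The fitted change was 9.94% (log2 fold change 0.14, standard error 0.05, 95% interval 0.03 to 0.25, unadjusted p = 0.0190 and adjusted p = 0.461 in edgeR's quasi-likelihood test). Without control mouse 2 the log2 fold change was 0.12 (unadjusted p = 0.0823 in edgeR's fit), and without control mouse 5 it was 0.11 (0.0922), so the call rested on these brains.

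Crhr1 is abundant in cortical and hippocampal projection neurons, and of 8 markers of these neurons, 3 were called higher in PLDP brains and 0 lower (median log2 fold change of the 8, 0.08). These were Nrgn, a calmodulin-binding protein of dendrites, and the layer transcription factors Cux2 and Fezf2, with log2 fold changes of 0.09, 0.14 and 0.22. Among all features tested, 4.91% were called higher and 3.69% lower. Nrgn was not called without PLDP mouse 26 or control mouse 10, Cux2 without PLDP mouse 22 or 26 or control mouse 10, and Fezf2 without PLDP mouse 22. The summed level of the 8 markers was 1811 to 1929 CPM in the control mice and 1974 to 2025 in the PLDP mice, without overlap. None of the 8 was at 0. Their part in the Crhr1 result was not tested. In bulk tissue, more cells of a type and more RNA per cell cannot be told apart, nor can fewer cells and less RNA.

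The second receptor, Crhr2, binds urocortins more strongly than CRH and is found in few places, such as the lateral septum, the ventromedial hypothalamus and the choroid plexus. Crhr2 (ENSMUSG00000003476, chromosome 6, 55090049 to 55133016, minus strand) had 1.35, 2.00 and 2.81 CPM in control mice 2, 5 and 10, and 2.604, 2.10 and 2.57 in PLDP mice 17, 22 and 26. The control brains spanned the whole range and enclosed all PLDP brains. The log2 fold change of Crhr2 was 0.23 (95% interval -0.26 to 0.73, unadjusted p = 0.331). Leaving out control mouse 10, the highest, gave 0.52 (unadjusted p = 0.0473), and leaving out control mouse 2, the lowest, gave 0.0073 (0.974), in the same edgeR test.

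Crhbp encodes the binding protein that sequesters CRH and urocortin. It lies on chromosome 13 (ENSMUSG00000021680, 95431371 to 95444924, minus strand) and varied little. Control mice 2, 5 and 10 had 11.1, 11.3 and 11.3 CPM, and PLDP mice 17, 22 and 26 had 10.9, 12.2 and 11.4. The control brains fell inside the range of the PLDP brains. The log2 fold change was 0.03 with a 95% interval from -0.16 to 0.22. This corresponds to folds of 0.898 to 1.17.

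PACAP is a close relative of vasoactive intestinal peptide (VIP), and both are cut from larger precursors. The coding bases of the shared 27 residues at the start of each peptide are shown here because Adcyap1 was lower in the PLDP mice while Vip was not called. They were read from 1 GENCODE M21 transcript of each gene (codons 131 to 157 of 175 in Adcyap1 and 126 to 152 of 171 in Vip), and capitals mark the 19 of 81 bases at which they differ (76.5% identity, with 8 of 27 amino acids different).
Adcyap1: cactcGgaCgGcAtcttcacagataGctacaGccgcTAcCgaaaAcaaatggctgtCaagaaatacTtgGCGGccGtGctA
Vip: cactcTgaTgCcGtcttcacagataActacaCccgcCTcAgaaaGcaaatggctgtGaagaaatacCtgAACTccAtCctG

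Adcyap1 (ENSMUSG00000024256, chromosome 17, 93199017 to 93206537, plus strand) had 21.3, 25.6 and 22.6 CPM in control mice 2, 5 and 10. It had 18.9, 19.7 and 20.7 CPM in PLDP mice 17, 22 and 26. All PLDP brains were below all control brains, with a gap of less than 1 CPM between PLDP mouse 26 and control mouse 2, and control mouse 5 was the highest. Mean levels were 23.1 ± 2.1997 and 19.8 ± 0.881 CPM (n = 3 each, SD). Adcyap1 fell by 14.7% (log2 fold change -0.23, standard error 0.08, 95% interval -0.40 to -0.06, unadjusted p = 0.0102 and adjusted p = 0.420 in edgeR's quasi-likelihood test). Without control mouse 5 the log2 fold change was -0.15 (unadjusted p = 0.0896 in the same test), and it ranged from -0.29 to -0.20 when any other mouse was left out, with an unadjusted p under 0.05 each time.

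Vip averaged 19.6 ± 0.524 CPM in control brains and 21.05 ± 0.474 CPM in PLDP brains (n = 3 each, SD). Its diets did not overlap, with the PLDP mice higher, but the gene was not called (log2 fold change 0.10, unadjusted p = 0.167, adjusted p = 0.734 in edgeR's test). The receptor shared by PACAP and VIP that is encoded by Vipr2 averaged 9.75 ± 1.06 and 11.6 ± 1.59 CPM (n = 3 each, SD), and the diets overlapped. The Vipr2 log2 fold change was 0.26 (unadjusted p = 0.0387, adjusted p = 0.548 in edgeR's test). It was not called by DESeq2 (unadjusted p = 0.0655), nor without PLDP mouse 22 (log2 fold change 0.19), PLDP mouse 26 (0.21), control mouse 10 (0.20) or control mouse 5 (0.22).

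The receptor specific to PACAP, encoded by Adcyap1r1, was not called. Adcyap1r1 (ENSMUSG00000029778, chromosome 6, 55451978 to 55501451, plus strand) had 209, 206 and 203 CPM in control mice 2, 5 and 10, and 197, 208 and 208 in PLDP mice 17, 22 and 26. It was the most steady of the 10 genes, with a ratio of 1.06 between its highest and lowest brain. The log2 fold change was -0.01 and its 95% interval, from -0.10 to 0.07, was the narrowest among the 10 genes.

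Vasopressin and oxytocin are made by neighbouring hypothalamic neurons from sister genes. Their mature peptides are shown as coding bases because Avp was compared with Oxt within each brain. The 27 bases come from 1 GENCODE M21 transcript of each gene (codons 24 to 32 of 168 in Avp and 20 to 28 of 125 in Oxt). Capitals mark the 5 bases that differ, with 2 of the 9 amino acids different.
Avp: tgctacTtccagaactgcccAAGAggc
Oxt: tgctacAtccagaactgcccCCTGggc

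Avp (ENSMUSG00000037727, chromosome 2, 130580620 to 130582554, minus strand) had 12.7, 11.3 and 13.5 CPM in control mice 2, 5 and 10 and 11.995, 9.98 and 11.1 CPM in PLDP mice 17, 22 and 26. The diets overlapped, since PLDP mouse 17 exceeded control mouse 5. The log2 fold change of Avp was -0.19 (95% interval -0.40 to 0.03, unadjusted p = 0.0804 and adjusted p = 0.631 in edgeR's quasi-likelihood test), which did not pass. It passed the unadjusted threshold when PLDP mouse 17 or control mouse 5 was left out, at -0.25 each time, and was -0.12 without PLDP mouse 22 and -0.13 without control mouse 10. Oxt averaged 7.93 ± 0.782 CPM in control brains and 7.48 ± 0.288 CPM in PLDP brains (n = 3 each, SD), and its log2 fold change was -0.09 (unadjusted p = 0.448, adjusted p = 0.883 in edgeR's test).

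Avpr1a, which encodes the vasopressin receptor most widespread in the brain, showed the largest fold difference among the 10 genes and the lowest level per length. Avpr1a (ENSMUSG00000020123, chromosome 10, 122448499 to 122453452, plus strand) had 13, 15 and 18 counts in control mice 2, 5 and 10 and 6, 10 and 7 in PLDP mice 17, 22 and 26. This was 0.63, 0.68 and 0.87 CPM against 0.28, 0.42 and 0.37, and every PLDP brain was below every control brain. In all, 46 counts stood against 23. The filter required 0.472 CPM in 3 mice, which all 3 control mice reached and 0 PLDP mice did, so the gene was tested only because of the diet in which it was high. Without any filter its log2 fold change was -1.01 (unadjusted p = 0.0144 in edgeR's test). Avpr1a fell by 50.1% (log2 fold change -1.004, standard error 0.37, 95% interval -1.78 to -0.23, unadjusted p = 0.0140 and adjusted p = 0.448 in edgeR's quasi-likelihood test). The interval reaches from a fold of 0.292 to 0.852, with 6 to 18 counts behind each brain's value. DESeq2 gave a similar log2 fold change of -1.02 with an unadjusted p of 0.0657. The call was also lost without PLDP mouse 17 (log2 fold change -0.85) or control mouse 10 (-0.86). An antisense gene, Gm48877, is annotated across Avpr1a on the other strand and had 0 counts in every brain. The other vasopressin receptor genes were too low to test, Avpr1b with at most 4 counts and Avpr2 with 0 in all 6 brains, and the oxytocin receptor gene Oxtr was not called (log2 fold change -0.04).

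**Figure D2:**
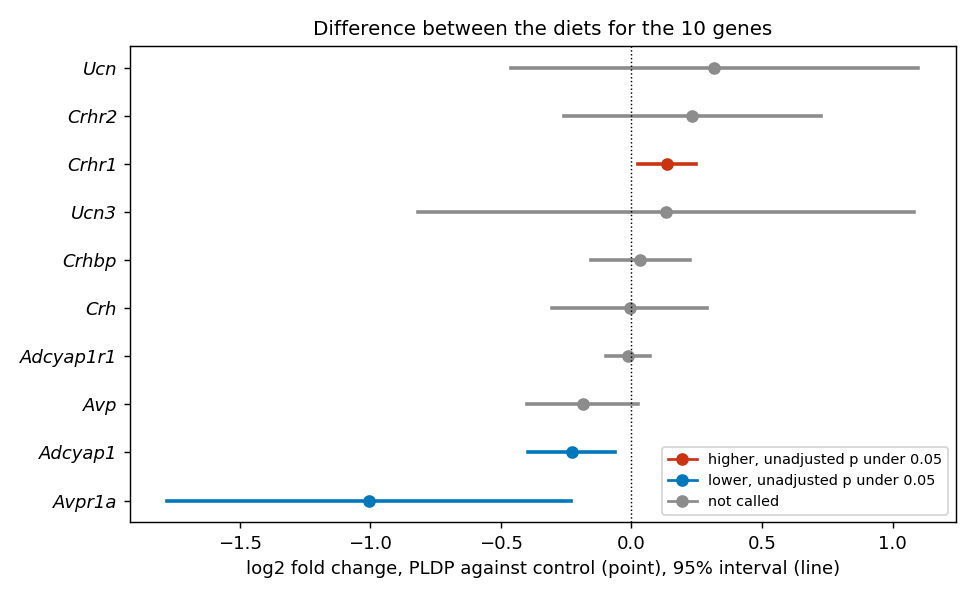
Log2 fold change of each of the 10 genes in the PLDP mice against the control mice (x axis, point) with its 95% interval (line) from edgeR's quasi-likelihood fit, colored by the call at an unadjusted p under 0.05. The intervals of Crhr1 (0.03 to 0.25), Adcyap1 (-0.40 to -0.06) and Avpr1a (-1.78 to -0.23) leave out 0, and those of Ucn and Ucn3 are wide.

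Adcyap1, Avp and Avpr1a are expressed in the hypothalamus and in the brainstem as well as elsewhere. Of 9 hindbrain and spinal markers, 7 were called lower in PLDP brains and 0 higher (median log2 fold change of the 9, -0.75), and none was at 0. Hoxb3 (log2 fold change -1.05) and Hoxa5 (-1.37), which mark hindbrain and spinal cord, and Slc6a5 (-0.66) and Glra1 (-0.50), genes of glycine transmission, were among them. The other 2 of the list, Tph2 (0.05) and Chat (0.03), were not called and overlapped between the diets. Among all features tested, 3.69% were called lower. The summed level of the 9 was 154.0 to 170.2 CPM in the control mice and 87.6 to 123.6 in the PLDP mice, and PLDP mouse 22 was the lowest. Of 13 hypothalamus markers, 8 could be tested, of which 2 were lower and 0 higher (median log2 fold change of the 8, -0.07). They were Gal, the gene of galanin (log2 fold change -0.62), and Pmch, that of melanin-concentrating hormone (-0.36). PLDP mouse 17 had the lowest Pmch, at 7.67 CPM. The Pmch log2 fold change was -0.11 without that mouse and was not called, nor was it called by DESeq2 (-0.36) or without control mouse 2 (-0.37) or control mouse 5 (-0.32). Gal, Hoxb3, Hoxa5, Slc6a5 and Glra1 were called whichever mouse was left out. The summed hypothalamic level was 52.4 to 54.7 CPM in the control mice and 41.4 to 51.8 in the PLDP mice, again without overlap, and Kiss1 was at 0 in every brain. The part of either region in the results for Adcyap1, Avp and Avpr1a was not tested.

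**Figure D3:**
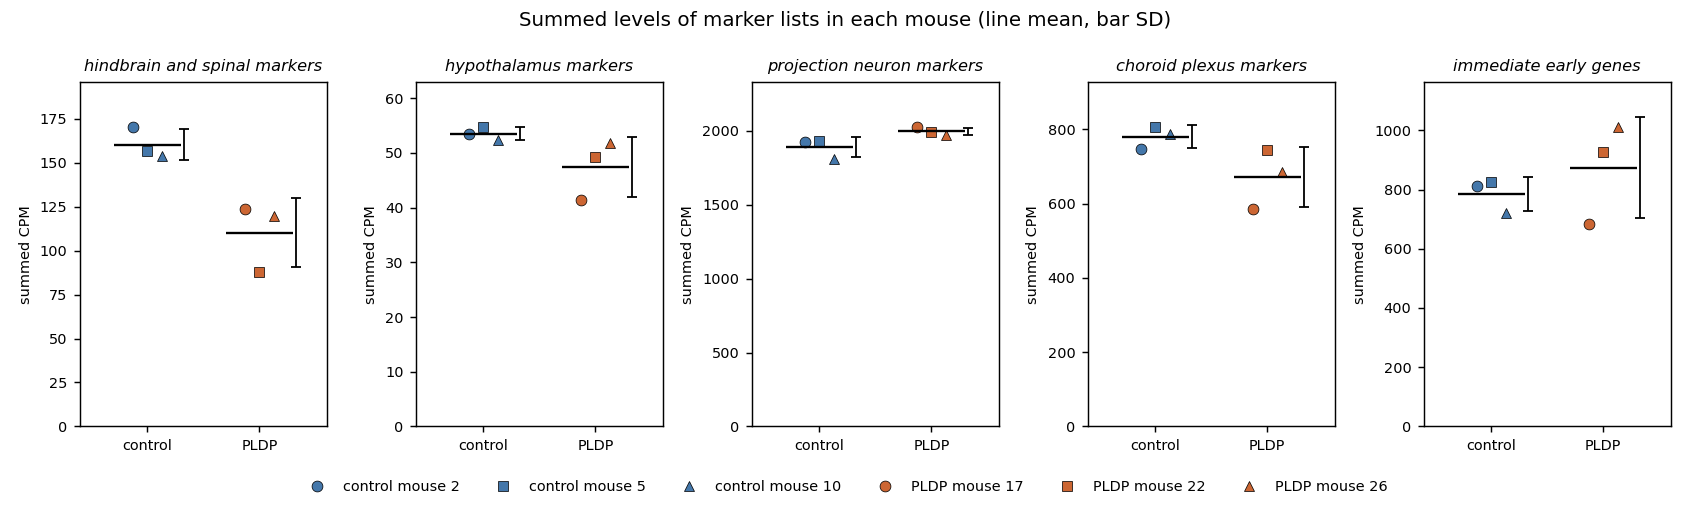
Summed CPM (y axis from 0) of 5 marker lists in each mouse by diet, with 1 point per mouse, a line at the mean and a bar of 1 SD. The sums of hindbrain and spinal markers (154.0 to 170.2 in control, 87.6 to 123.6 in PLDP), hypothalamus markers and choroid plexus markers are lower in all PLDP mice. That of projection neuron markers is higher, and the immediate early genes overlap. The lower sums mostly reflect abundant genes: Ttr (choroid plexus), Slc6a5 and Glra1 (hindbrain and spinal), and Pmch and Trh (hypothalamus).

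The remaining marker lists were read for the same purpose. Over all 11 marker lists, 5 of 79 tested genes were called higher and 16 lower, or 26.6% beside 8.6% of all features. The lists were chosen with earlier results of these data known, so this share is a description. The hindbrain and spinal list alone held 7 of the lower calls. The number higher was 14 without PLDP mouse 17 and 1 without control mouse 10. DESeq2 gave 3 higher and 10 lower. Choroid plexus markers, relevant to Crhr2, had 3 of 6 lower and 0 higher, which were Ttr, F5 and Folr1 (log2 fold changes -0.22, -0.31 and -0.31), and their sum ran from 746.1 to 805.7 CPM in the control mice and from 585.8 to 744.8 in the PLDP mice. F5 and Folr1 were each called in 3 of the 6 fits that left out a mouse, and Ttr in all 6. Kcnj13 (-0.05), Clic6 (-0.03) and Kl (-0.18) were not called. Ttr made up most of the sum, with 679.3 to 728.5 CPM in the control mice and 535.4 to 669.6 in the PLDP mice. Of the 8 GABA interneuron markers, a class that includes cortical CRH cells, 0 were called in either direction. None of the 7 cerebellum, 6 thalamus or 5 blood markers was called. Of 9 immediate early genes, which are induced by recent neuronal activity, 2 were higher (Arc and Fosb, log2 fold changes 0.26 and 0.19) and 0 lower, with sums of 720.3 to 826.0 CPM in the control mice and 683.2 to 1011 in the PLDP mice. Neither call was stable. Arc was called in 2 of the 6 fits that left out a mouse (log2 fold change 0.10 without PLDP mouse 26) and Fosb in 1 of 6 (0.11 without PLDP mouse 26), DESeq2 and limma voom called neither, and PLDP mouse 17 was below every control brain for both. Of 12 general cell class markers, 4 were lower and 0 higher, among them Mbp, Aqp4 and P2ry12 (log2 fold changes -0.12, -0.11 and -0.17), each called in 3 of the 6 fits that left out a mouse.

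Levels were then compared between the genes per length, as CPM per kb of annotated exon over all 6 brains. Adcyap1r1 was first with 31.1 (range 29.8 to 31.7). Crhr1 followed with 23.2 (21.3 to 24.4) and Avp with 20.4 (17.3 to 23.4), and these neighbours overlapped. Crhbp (6.30), Adcyap1 (5.68) and Crh (4.41) formed a middle group in which each overlapped the next. Ucn stood alone at 1.24 (0.830 to 1.91). Crhr2 (0.437), Ucn3 (0.286) and Avpr1a (0.203) were lowest and overlapped in turn. The mean level of the first gene was 153.3 times that of the last. The order thus placed the receptors at both ends, with Adcyap1r1 and Crhr1 highest and Crhr2 and Avpr1a among the lowest.

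**Figure D4:**
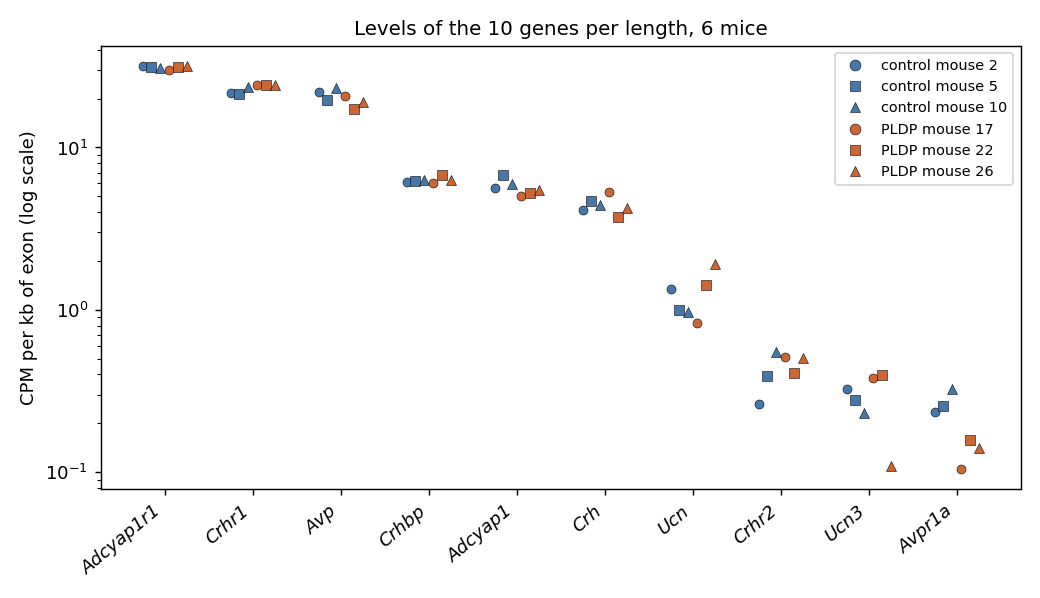
CPM per kb of annotated exon (y axis, log scale) of the 10 genes in order of their mean over 6 mice, with 1 point per mouse colored by diet. Adcyap1r1, Crhr1 and Avp lie between 17.3 and 31.7, Crhbp, Adcyap1 and Crh between 3.72 and 6.77, and Crhr2, Ucn3 and Avpr1a below 1.

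Ratios between partners were computed within each brain, which removes the scaling between libraries. There were 4 ratios, each tested by an exact two-sided permutation test over the 6 mice, for which the smallest possible p is 0.1. Counts of Adcyap1r1 were 9.83, 8.07 and 9.01 times those of Adcyap1 in control mice 2, 5 and 10, and 10.4, 10.5 and 10.1 times in PLDP mice 17, 22 and 26. The PLDP brains were all above the control brains and close to each other. The log2 ratio was higher by 0.21 in the PLDP mice, with an exact permutation p of 0.1 and 0.4 after adjustment over the 4 ratios. The ratio holds the same Adcyap1 counts as above and is not separate evidence.

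The other 3 ratios overlapped between the diets. Counts of Crhr1 were 20.6 to 39.4 times those of Crhr2 in the control mice and 22.9 to 28.5 times in the PLDP mice (exact permutation p = 0.7). Crh had 0.491 to 0.552 times the counts of its binding protein gene Crhbp in the control mice and 0.403 to 0.641 times in the PLDP mice (exact permutation p = 0.8). The spread among the PLDP mice was the wider. Avp had 1.42 to 1.79 times the counts of Oxt in the control mice and 1.35 to 1.65 times in the PLDP mice (exact permutation p = 0.5).

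**Figure D5:**
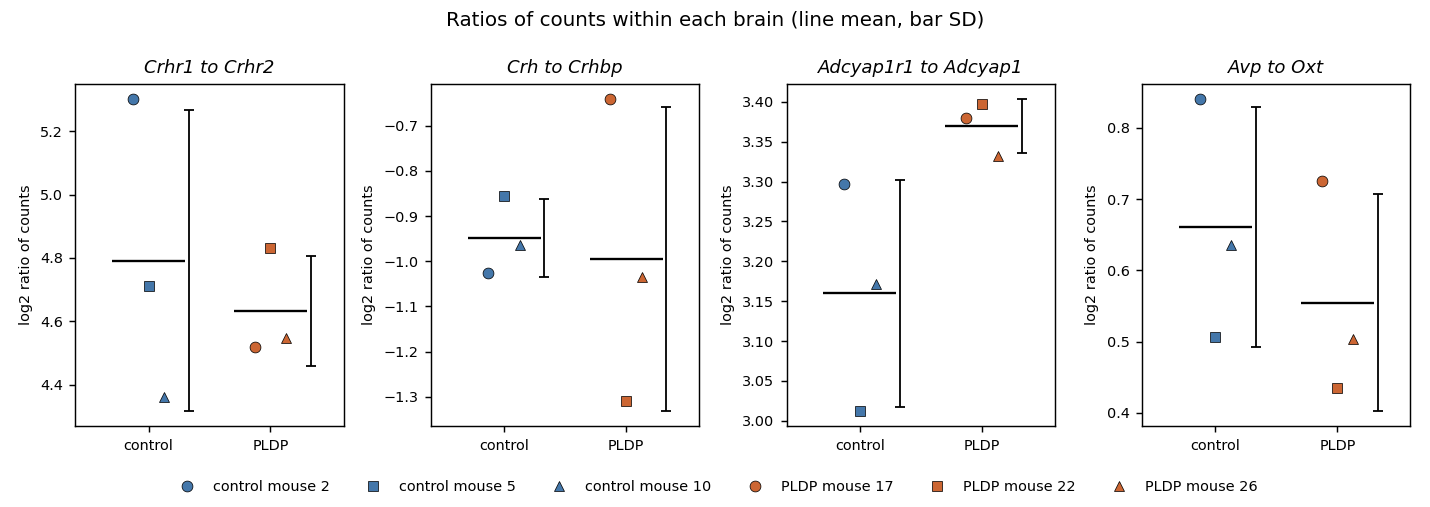
Log2 ratios of counts (y axes, not starting at 0) for 4 gene pairs within each brain by diet, with 1 point per mouse, a line at the mean and a bar of 1 SD. The ratio of Adcyap1r1 to Adcyap1 is 3.33 to 3.40 in the PLDP mice and 3.01 to 3.30 in the control mice, and the other ratios overlap.

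The genes around the 10 were taken from 7 lists of relatives and signaling partners with 71 genes, of which 61 were tested. Of these, 4 were higher and 4 lower, or 13.1% called beside 8.6% of all features. These lists too were chosen with earlier results known, so the share is a description. The number higher rested on single mice, with 12 without PLDP mouse 17 and 2 without PLDP mouse 22, PLDP mouse 26 or control mouse 5, and DESeq2 gave 2. The median log2 fold changes of the lists ran from -0.04 (vasopressin and oxytocin relatives) to 0.09 (PACAP, VIP and secretin relatives). In the stress hormone axis, 8 of 11 genes were tested, and 1 was higher and 1 lower. Fkbp5, a cochaperone of the glucocorticoid receptor that is induced by glucocorticoids, averaged 34.7 ± 3.35 CPM in control brains and 41.1 ± 2.59 CPM in PLDP brains (n = 3 each, SD), and its log2 fold change was 0.24 (unadjusted p = 0.00344, adjusted p = 0.306 in edgeR's test). Its highest control brain, at 38.5 CPM, exceeded its lowest PLDP brain, at 38.3 CPM. Tsc22d3 (log2 fold change 0.07) and Sgk1 (0.06), of the same list, were not called and overlapped between the diets. Hsd11b1, whose enzyme regenerates active glucocorticoid, was lower. The Hsd11b1 log2 fold change was -0.34 (adjusted p = 0.193 in edgeR's test), and without the filter on low counts its adjusted p was 0.0100, against 0.122 to 0.768 under the other 11 alternatives. Pomc, the precursor gene of adrenocorticotropic hormone, was at 2.495 to 3.32 CPM in the control mice and 2.46 to 3.06 in the PLDP mice. Nr3c1, the glucocorticoid receptor gene, overlapped between the diets and was not called (log2 fold change -0.08).

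The receptors of CRH and PACAP signal mainly through Gs and cyclic AMP. Of 23 genes of that route, 1 was higher and 3 were lower, beside 4.91% and 3.69% of all features. Pde4b, which degrades cyclic AMP, had a log2 fold change of -0.18, Prkar2b, a regulatory subunit of protein kinase A, -0.14, and Prkacb, a catalytic subunit, -0.11, with adjusted p of 0.261, 0.448 and 0.421 in edgeR's test. Rapgef3, a cyclic AMP sensor outside protein kinase A, was the higher gene (0.13, adjusted p = 0.578), and it was not called by DESeq2, with library size alone or without the filter (each 0.12 to 0.13), nor without PLDP mouse 22 or 26 or control mouse 2 or 5 (0.08 to 0.13). Prkar2b was not called without PLDP mouse 26 or control mouse 5 (-0.13 each). Of 9 genes of Gq and phospholipase C signaling, the route of the vasopressin receptor, 1 was higher and 0 were lower. None of the 6 receptor kinase and arrestin genes and none of the 6 neuropeptide processing genes, among them Pcsk1 and Pam, was called. In the PACAP, VIP and secretin family, 6 of 11 relatives were tested and Vipr2 was the only gene called, and in the vasopressin and oxytocin family 3 of 5 were tested and 0 called.

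Cyclic AMP acts on genes through CREB, which binds the motif TGACGTCA or its core TGACG. The promoters available for the 10 genes were therefore searched for these letters on both strands. The RefSeq promoter table (GRCm38.p6, 250 bases before to 50 after each start) held 9 of the 10 genes. Crh had no entry, so its promoter was not searched. The core was found in 4 of the 9, Adcyap1, Avpr1a, Crhbp and Ucn, and in 20.8% of all 32851 promoters. The full motif, which contains the core, was found in Ucn and in 1.79% of all promoters. The windows are shown because Adcyap1 and Avpr1a, both lower in the PLDP mice, have the core, and capitals mark it or, on the other strand, its reverse complement CGTCA. Each window is written 5′ to 3′ in the direction of the gene. They lie at chr17:93198908-93198948 (plus strand), chr10:122448316-122448356 (plus), chr13:95444873-95444913 (minus) and chr5:31138917-31138957 (minus), with the core 91, 165, 64 and 44 bases before the start (for Adcyap1, the first of its listed starts).
Adcyap1: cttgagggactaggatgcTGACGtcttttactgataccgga
Avpr1a: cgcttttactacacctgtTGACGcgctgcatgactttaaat
Crhbp: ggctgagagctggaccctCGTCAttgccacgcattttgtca
Ucn: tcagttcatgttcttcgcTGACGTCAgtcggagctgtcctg

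These matches describe the sequence and are no sign of binding. Crhbp and Ucn, which have the core as well, were not called, and Crhr1, which was called, has no match within its window.

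Ucn3 varied most over the 6 brains, with a ratio of 3.66 between its highest and lowest CPM. Among 137 tested genes of the lists, those with the most similar log2 CPM over the 6 mice were Grk6 (Pearson r = 0.93), Npy (0.82) and Cbln1 (0.76). With 3 to 14 counts of Ucn3 per brain and 6 points that share 6 libraries, these values only describe the brains measured.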

How the data were processed

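Whole-brain RNA of 6 mice was sequenced as stranded, polyadenylated libraries, with 1 library per mouse. The authors deposited whole-number read counts per gene without normalization. The submitters' processing notes name cutadapt 2.9, HISAT2 2.2.0, featureCounts 2.6.0 and DESeq2 1.6.3 with the builds GRCm38 and GRCh38. The annotation, the strand setting and the handling of shared reads are not given in the sources used here. Each file lists 55034 Ensembl identifiers and 5320 numbered features without position, and reads that such a feature shares with a gene cannot be traced. Symbols, positions and exon lengths were taken from GENCODE M21 (GRCm38).

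Counts were filtered with filterByExpr (minimum count 10, minimum total 15), scaled by TMM and tested with edgeR 4.0.16 in R 4.3.3 (glmQLFit and glmQLFTest, diet as the only term, all 6 mice). The threshold for a call was 0.05 on the unadjusted p, and adjusted p are Benjamini-Hochberg values over all 18580 features. CPM are counts per 1000000 counts of the scaled library. Intervals are 95% intervals of that fit. Total counts of 18797061 to 23938729 per mouse limit genes with few counts. Ratios were tested by exact permutation with scipy 1.17.1. The fit was tested on simulated data.

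The genes and lists were chosen with earlier results of these data known. Named list genes are those called, up to 4 per list by smallest p, the nearest relatives Oxt, Vip, Pomc, Ucn2, Avpr1b and Vipr2, and the 3 list genes most like the most variable of the 10. Others (Avpr2, Oxtr, Nr3c1, Tsc22d3, Sgk1, Pcsk1, Pam, Trh, Tph2, Chat, Kcnj13, Clic6, Kl and marker genes at or near 0) were named after their values were seen. The alternatives were DESeq2 1.42.0, limma 3.58.1 (voom), no filter, scaling by library size alone, by upper quartiles or by relative log expression, 0.5 counts added to ratios, and leaving out each mouse. The mice are separate animals with unshared numbers. Some called list genes are counted but not reported here by name.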

Additional observations from a re-analysis of the deposited data

How the results depend on the processing

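Crhr1 and Adcyap1 were called under all 6 alternatives to the filter, scaling or test, and Avpr1a under 5. Avpr1a passed the filter through the control mice alone, so its calls with the filter are a description. With DESeq2 the log2 fold change of Avpr1a was -1.02 and its unadjusted p 0.0657, which left 1 gene called lower among the 10. With limma voom the log2 fold change of Ucn3 was -0.038. Across all 12 alternatives the adjusted p ranged from 0.277 to 0.918 for Crhr1, from 0.289 to 0.840 for Adcyap1 and from 0.424 to 0.99996 for Avpr1a. The causes were not tested.

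Leaving out 1 mouse at a time gave log2 fold changes from -0.16 to 0.11 for Crh, 0.11 to 0.18 for Crhr1, 0.0073 to 0.52 for Crhr2, -0.014 to 0.072 for Crhbp, 0.05 to 0.58 for Ucn, -0.14 to 0.48 for Ucn3, -0.29 to -0.15 for Adcyap1, -0.028 to 0.013 for Adcyap1r1, -0.25 to -0.12 for Avp and -1.15 to -0.85 for Avpr1a. Avpr1a kept its direction, with an unadjusted p of 0.0585 without PLDP mouse 17 and 0.0633 without control mouse 10. From 0 (without control mouse 2 or 5) to 2 (without control mouse 10) of the 10 genes were called higher and from 1 to 2 lower. Differences in log2 ratio ranged from -0.37 to 0.10 for Crhr1 to Crhr2, -0.22 to 0.11 for Crh to Crhbp, 0.14 to 0.28 for Adcyap1r1 to Adcyap1 and -0.19 to -0.02 for Avp to Oxt, and 0.5 added counts changed no direction. With 1 mouse left out, no exact test of a ratio could pass 0.05.

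Genes of the 7 signaling lists called higher ranged from 2 to 12 (12 without PLDP mouse 17) and lower from 4 to 6. Those of the 11 marker lists ranged from 1 to 14 higher (14 without PLDP mouse 17) and from 12 to 16 lower, beside 5 and 16 with all mice. DESeq2 gave 2 signaling genes higher, 3 markers higher and 10 lower. No filter gave 3 signaling genes higher and 7 lower, and 9 markers higher and 23 lower. Over all features, 640 to 1293 were higher, 493 to 1072 lower and 1133 to 2365 called in all when a mouse was left out. DESeq2 called 926, with 564 higher and 362 lower, beside 1598, with 913 and 685. Without the filter 2360 of 36099 tested features were called, with 1314 higher and 1046 lower. No paired analysis was possible because the diets share no mouse numbers.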
